A study of Mus musculus with 6 samples.

Results

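Potassium channel genes were compared between the 2 sides of primary visual cortex (V1) of mice that had spent 3 days with the right eye sutured shut. The genes were taken by name and level alone: of 97 genes in the count table whose symbol starts with Kcn, 74 had a mean of at least 1 CPM (read counts scaled to a common library size) over the 6 libraries and form the set described here. They are 74 of 52636 genes in the table and of 20473 genes tested, and 72 of them code for proteins. The other 2, Kcnd3os and Kcnmb4os2, are antisense genes. Kcnq1 was just inside the level limit with a mean of 1.07 CPM, and Kcne4 just outside with 0.982 CPM. All 74 passed the filter on low counts used for testing. Also included were 17 circular RNAs (circRNAs, closed loops recognised by reads across a back-splice junction) made from 10 of these genes, out of 1488 circRNAs in all.

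Total RNA came from V1 dissected out of 3 C57BL/6J mice (wild type, postnatal day 28), and each mouse gave 1 library from the contralateral (left) and 1 from the ipsilateral (right) hemisphere. Every mouse was deprived, so the ipsilateral side serves as the reference and no undeprived animal is among the groups. It is not an untouched control, since both hemispheres receive some input from each eye. The animals are the replicates (n = 3 pairs). All differences are contralateral against ipsilateral V1, in the same mouse.

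Potassium channels let potassium leave the cell and thereby set the resting potential, the shape of the action potential and the firing rate of neurons. Voltage-gated (Kv) channels are tetramers of subunits of the same family, and a group of electrically silent subunits forms no channel alone but joins Kv2 subunits and alters their gating. Other families respond to calcium or sodium, rectify inwardly under the control of G proteins or ATP, or pass a background leak, and auxiliary subunits tune trafficking and gating. In visual cortex these channels are known as a main control of the excitability of excitatory and inhibitory neurons.

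Libraries held 17849253 to 32213500 gene reads, of which potassium channel genes took 0.634% to 0.753%. Within each mouse that share of unscaled reads was the lower of the pair on the contralateral side: 0.738% against 0.753% in mouse 1, 0.634% against 0.689% in mouse 2, and 0.722% against 0.749% in mouse 3. In mouse 3 this order depends on the lack of scaling. The scaling factors used for CPM were 0.9945 contralaterally and 1.037 ipsilaterally in that mouse, enough to turn the order. Libraries stood apart in mitochondrial ribosomal RNA: mt-Rnr1 was at 14.5 to 35.9 CPM in contralateral 1, ipsilateral 1 and ipsilateral 3, and at 2243 to 5801 CPM in the others. The hemispheres of mouse 3 thus lie on different sides of that split. Excitatory neuron markers such as Slc17a7 and Neurod6 were present in all libraries. Among 7 markers listed for other regions, Ttr, of choroid plexus, was at 0 in both libraries of mouse 3 and at most at 0.454 CPM in the rest. Drd2 averaged 0.406 CPM. The others were present: Prox1, Tcf7l2, Col1a1, Drd1 and Prkcd averaged 26.0, 14.8, 11.9, 9.04 and 7.46 CPM. Drd1 and Prox1 were lower contralaterally in all mice (edgeR adjusted p 0.275 and 0.401). For Tcf7l2, Col1a1 and Prkcd the sign differed between mice.

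Potassium channel transcripts spanned a 206-fold range of level per kilobase. Expressed as RPKM (CPM divided by gene length in kilobases, mean of 6 libraries), Kcnab2, a beta subunit of Kv1 channels, was highest at 54.0 RPKM. Other abundant genes were Kcnh5, an ether-a-go-go (EAG) channel, at 46.0 RPKM, the inward rectifier Kcnj4 at 41.4 RPKM, the axonal Kv1 subunit Kcna2 at 40.8 RPKM and the astrocytic inward rectifier Kcnj10 at 40.5 RPKM. The ranges of these genes over libraries overlapped from each to the next, so their order is not resolved. Kcnv1, an electrically silent subunit, ranked 9 with 34.9 RPKM, and its ipsilateral and contralateral points lie apart in the plot of levels. The lowest level was that of Kcnq1, at 0.262 RPKM.

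**Figure D1:**
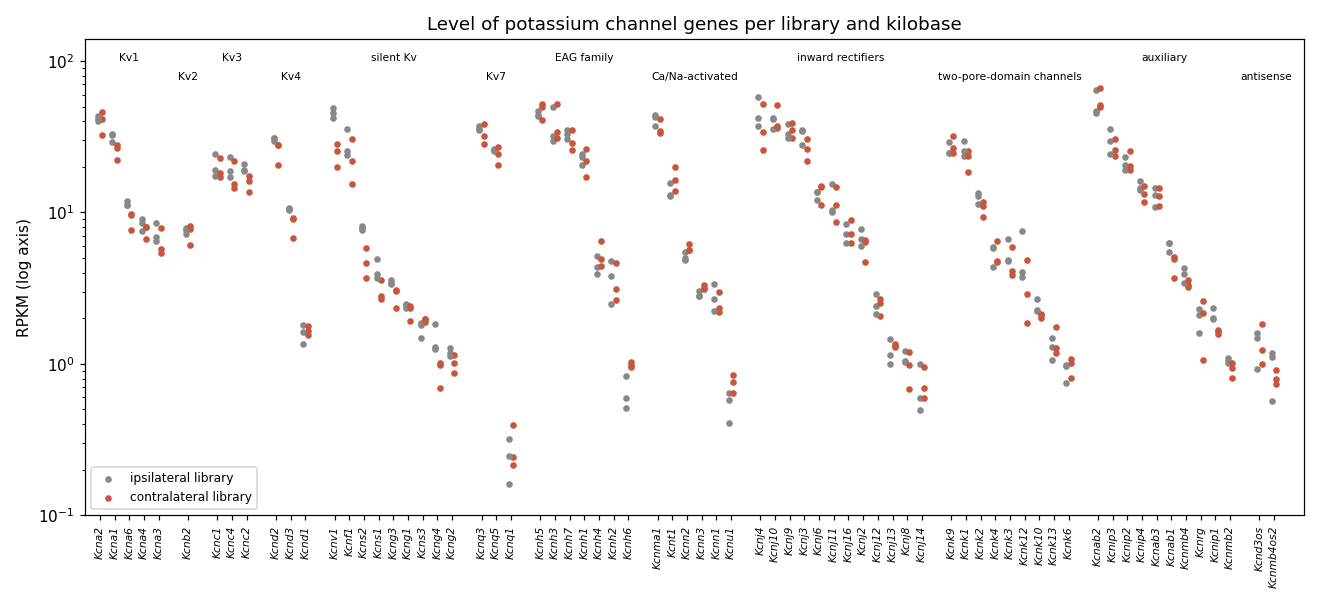
Level in RPKM (log axis) of the genes of the set, except a few whose single values are not reported, grouped by family, with 1 point per library (grey ipsilateral, red contralateral). For most genes the colours intermix, while the 3 contralateral points of Kcnv1 (19.8 to 28.2 RPKM) lie under its 3 ipsilateral points (41.9 to 48.7 RPKM).

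Of the 74 genes, 2 fell in contralateral V1 and 0 rose (edgeR's quasi-likelihood test with the mouse as a block, Benjamini-Hochberg adjusted p under 0.05 over all 20473 genes). Both, Kcnv1 and Kcns2, code for electrically silent Kv subunits. Among all tested genes 0.894% passed by the same rule (0.698% fell and 0.195% rose), and 1.04% of those with a mean of at least 1 CPM. DESeq2 and limma-voom with the same block also called Kcnv1 and Kcns2 and no other potassium channel gene. At an unadjusted edgeR p under 0.05, 19 genes of the set were lower and 2 higher, beside 6.94% and 6.3% of all tested genes. Of the tested genes with a mean of at least 1 CPM, 8.02% were lower and 6.52% higher by that rule.

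Kcnv1 (Kv8.1; ENSMUSG00000022342, minus strand, GRCm38 chr15:45106284-45114920) was at 115, 89.1 and 127 CPM in the contralateral libraries of mice 1, 2 and 3. In the ipsilateral libraries of the same mice it was at 219, 188 and 204 CPM. Every contralateral value lay under every ipsilateral one, and the drop was present in each mouse, at -0.93, -1.07 and -0.68 on the log2 scale. The means were 110.3 ± 19.3 and 204 ± 15.4 CPM (SD, n = 3), so the contralateral level was 1.85-fold lower. The fitted log2 fold change was -0.90 (SE 0.10), with an adjusted p of 7.618e-05 by edgeR's quasi-likelihood test. Without the mouse as a block, edgeR gave -0.89 with an adjusted p of 0.0348.

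Kcns2 (Kv9.2; ENSMUSG00000050963, plus strand, GRCm38 chr15:34837355-34843407) was less abundant, with 20.2, 16.1 and 25.3 CPM in the contralateral libraries of mice 1, 2 and 3. Ipsilateral values were 35.6, 34.4 and 33.3 CPM and hardly varied. The groups again did not overlap, and the difference was smallest in mouse 3, at -0.39 on the log2 scale, against -0.81 and -1.08 in mice 1 and 2. The contralateral mean was 20.5 ± 4.63 CPM and the ipsilateral mean 34.5 ± 1.18 CPM (SD, n = 3), a 1.68-fold lower level. By edgeR's quasi-likelihood test the log2 fold change was -0.77 (SE 0.12, adjusted p 0.00373). Here the block decided the call: without it, edgeR gave -0.75 with an adjusted p of 0.212. Neither Kcnv1 nor Kcns2 overlaps another annotated gene.

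Inside each mt-Rnr1 set of libraries both genes stayed lower contralaterally. The groups of both genes did not overlap over all libraries, so that direction was fixed in advance and is not a separate test. In the low set (1 contralateral and 2 ipsilateral libraries) the log2 fold change was -0.89 for Kcnv1 and -0.78 for Kcns2. In the high set (2 contralateral and 1 ipsilateral) it was -0.80 and -0.73. With 3 libraries and no block, neither gene passed in either set: the edgeR adjusted p was 0.233 and 0.349 for Kcnv1 and 1.00 and 0.325 for Kcns2, in the low and the high set. With the block, leaving out the mouse whose hemispheres lie in different sets, mouse 3, gave -1.01 for Kcnv1 and -0.96 for Kcns2, both past the edgeR threshold.

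**Figure D2:**
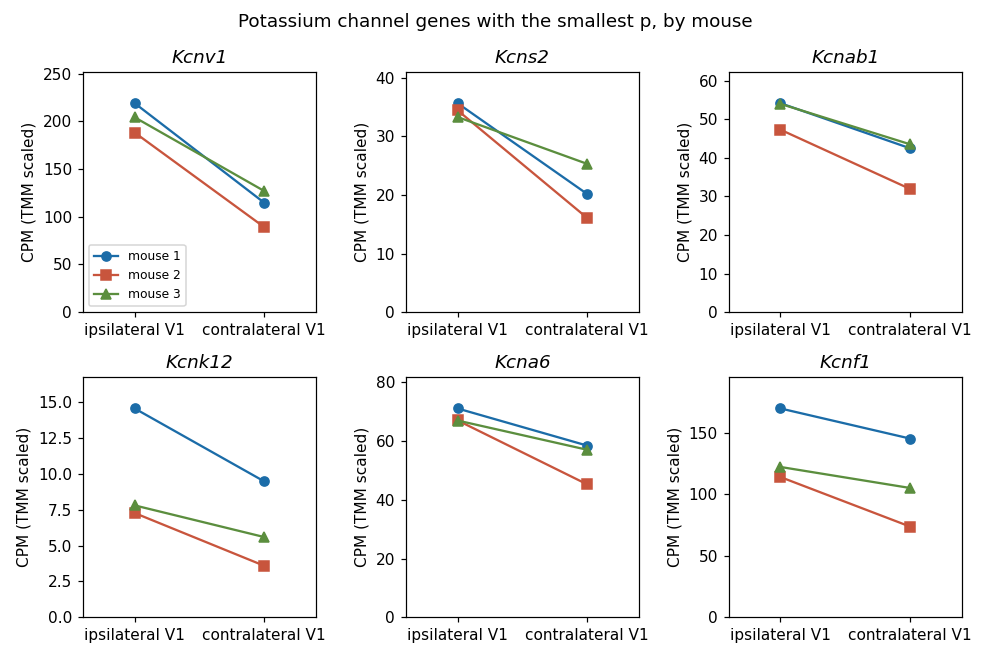
CPM (linear axes from 0, scaled by the trimmed mean of M-values, TMM) of the 6 potassium channel genes with the smallest p, with 1 line per mouse joining its ipsilateral and contralateral library. All lines slope down, and of the 6 genes only Kcnv1 and Kcns2 passed the adjusted threshold.

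The 9 silent subunits of the set had a median log2 fold change of -0.36, beside 0.03 over all tested genes, with 2 that fell and 7 that did not pass. In 7 of the 9 the contralateral library was lower in each of the 3 mice, and in 1 it was higher in each. Among all tested genes 17.3% were lower and 19.2% higher in all mice. Among those with a mean of at least 1 CPM the shares were 19% and 19%. Kcnf1 (Kv5.1), at 145, 73.9 and 105 CPM contralaterally and 170.0, 114 and 122 CPM ipsilaterally, varied more between mice than between hemispheres, and its log2 fold change of -0.36 (SE 0.10) had an edgeR adjusted p of 0.131 and was -0.22 without mouse 2. The scarcer Kcng4 (Kv6.4) was at 3.88, 2.62 and 3.74 CPM contralaterally and 6.94, 4.89 and 4.80 CPM ipsilaterally. Its groups did not overlap, yet its estimate of -0.69 had an SE of 0.21 and an edgeR adjusted p of 0.148. Kcns1 (Kv9.1) had an estimate of -0.46 (SE 0.15) and an edgeR adjusted p of 0.171. Kcns3 (Kv9.3) was the exception in direction, with 5.97, 6.21 and 6.28 CPM contralaterally against 5.89, 5.67 and 4.67 CPM ipsilaterally and an estimate of 0.19 (SE 0.18). Contralateral libraries lay under all ipsilateral ones in 5 of the 9. That pattern was seen in 6.29% of all tested genes and 6.91% of those with a mean of at least 1 CPM.

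Kcnb2, a subunit of the Kv2 family with which silent subunits assemble, was at 119, 92.5 and 124 CPM contralaterally and 119.5, 109.5 and 116 CPM ipsilaterally. Its groups overlapped, and its estimate was -0.05 (SE 0.10, edgeR adjusted p 0.854). Whether the silent subunits differ from it in their response was not tested.

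**Figure D3:**
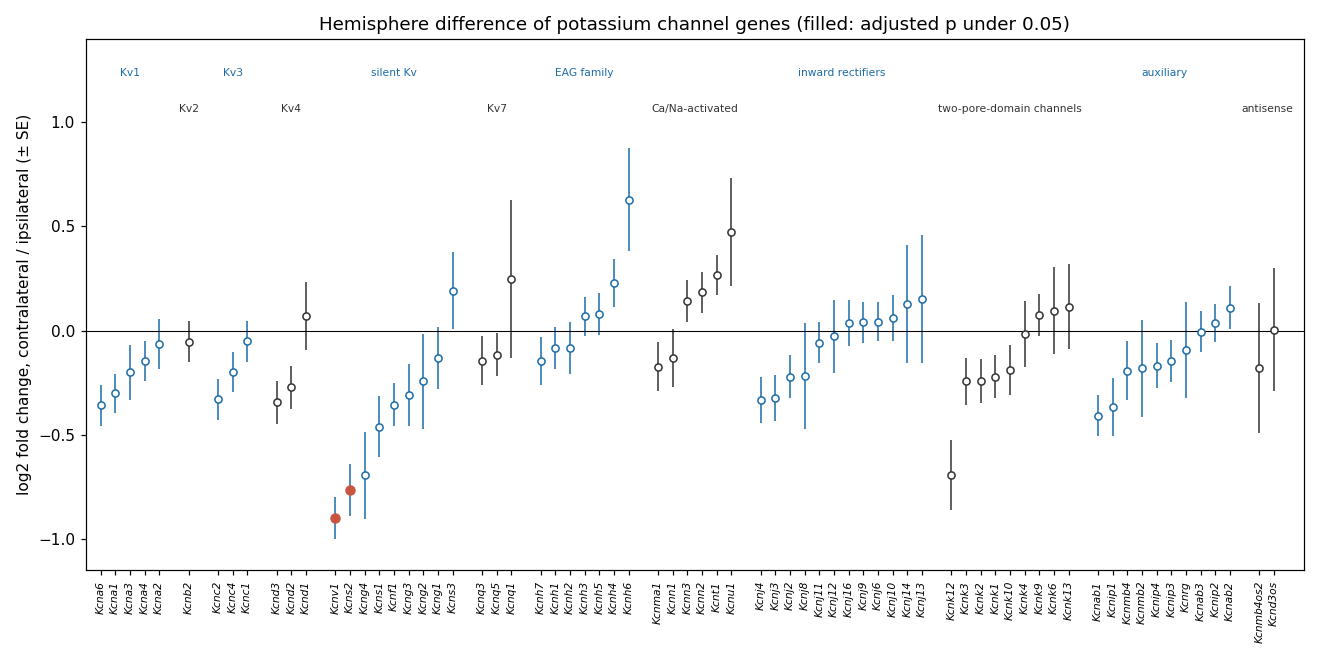
Log2 fold change (contralateral against ipsilateral V1, point) and its SE (bar) by family, from edgeR with the mouse as a block, for the genes of the set except a few whose single values are not reported; filled red points passed the adjusted threshold. Kcnv1 (-0.90) and Kcns2 (-0.77) are the only filled points, and the highest point is Kcnh6 (0.63).

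Among the 5 Kv1 subunits, which carry low-threshold and axonal currents, all 5 estimates were negative (median -0.20) and 0 passed by edgeR. Kcna6 was at 58.4, 45.2 and 57.0 CPM contralaterally and 71.1, 67.0 and 67.0 CPM ipsilaterally, with no overlap between groups. Its estimate was -0.36 (SE 0.10, edgeR adjusted p 0.107). Kcna1 also did not overlap, with 127, 107 and 134 against 154, 140.3 and 157 CPM, and had an estimate of -0.30 (SE 0.09, edgeR adjusted p 0.161). The most abundant Kv1 gene, Kcna2, had an estimate of -0.06 (SE 0.12) that turned to 0.08 without mouse 2.

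Of the Kv3 subunits, which allow fast repolarisation in fast-spiking interneurons, Kcnc2 was at 115, 97.5 and 124 CPM contralaterally and 150, 137 and 135 CPM ipsilaterally. These groups did not overlap, and the estimate of -0.33 (SE 0.10) had an edgeR adjusted p of 0.149. Estimates closer to 0 were those of Kcnc4 at -0.20 and Kcnc1 at -0.05.

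Kv4 subunits carry the dendritic A-type current. Kcnd3 was at 88.7, 65.2 and 86.4 CPM contralaterally and 98.8, 102 and 102 CPM ipsilaterally, with an estimate of -0.34 (SE 0.10, edgeR adjusted p 0.150). Kcnd2 had an estimate of -0.27 (SE 0.10, edgeR adjusted p 0.244), and its groups likewise did not overlap. Without mouse 2 these estimates were -0.20 and -0.15. Kcnd1, the rarest of them, stood at 0.07 (SE 0.16). At its 5′ end Kcnd3 (mean 90.5 CPM) overlaps the antisense gene Kcnd3os (mean 1.82 CPM) on the other strand. The strand setting of the counting is not given in the sources used here. Reads from the shared stretch of such pairs therefore cannot be told apart. In all, 22 of the 74 genes overlap an opposite-strand gene with a mean of at least 1 CPM.

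Estimates of the Kv7, EAG and calcium- or sodium-activated families centred above 0, with medians of 0.13, 0.07 and 0.16, and again none of their genes passed by edgeR. Of the Kv7 subunits, which carry the M-current that damps repetitive firing, Kcnq3 was at 457, 402 and 548 CPM contralaterally and 499, 511 and 533 CPM ipsilaterally. Its groups overlapped, with an estimate of -0.14 (SE 0.12). Kcnq5, of the same family, had an estimate of -0.12 (SE 0.10). Kcnh6, an EAG-related gene of low level, had the highest estimate of the set: 3.63, 3.48 and 3.37 CPM contralaterally against 2.10, 2.95 and 1.80 CPM ipsilaterally, a difference of 0.63 (SE 0.25, edgeR adjusted p 0.276). Kcnt1, the sodium-activated channel Slack, was at 188, 156 and 132 CPM contralaterally and 148, 123 and 124 CPM ipsilaterally. It was higher in all 3 mice, but the groups overlapped and the estimate of 0.27 (SE 0.10) had an edgeR adjusted p of 0.235. Kcnn2 and Kcnn3, small-conductance calcium-activated channels, had estimates of 0.18 and 0.14, both with contralateral libraries above all ipsilateral ones, as in 6.7% of all tested genes. Kcnma1, the large-conductance BK channel, had the opposite sign at -0.17 (SE 0.12) and was lower in all mice.

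The 12 inward rectifiers had a median of 0.00 and 0 that passed by edgeR. Kcnj4 (Kir2.3) was at 111, 55.4 and 72.7 CPM contralaterally and 125, 90.4 and 79.7 CPM ipsilaterally. The spread between mice exceeded the difference between hemispheres, and the estimate of -0.33 (SE 0.11) had an edgeR adjusted p of 0.191. Kcnj3, a G protein-gated subunit, had a log2 fold change of -0.32 (SE 0.11, edgeR adjusted p 0.210), while its partners Kcnj6 and Kcnj9 stood at 0.04 each. Without mouse 2 the estimates of Kcnj4 and Kcnj3 were -0.15 each. Kcnj10 and Kcnj16, which form astrocytic channels, had estimates of 0.06 and 0.04, and summed astrocyte markers overlapped between groups (1096 to 1436 CPM contralaterally and 1106 to 1275 CPM ipsilaterally). For Kcnj10 the sign differed between mice, with -0.22, 0.32 and 0.08 in mice 1, 2 and 3.

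The 9 two-pore-domain genes, which code for leak channels, had a median of -0.19. In all mice 5 were lower and 1 was higher, beside 17.3% and 19.2% of all tested genes. Of those with a mean of at least 1 CPM, the shares were 19% and 19%. Kcnk12 (THIK-2) was at 9.46, 3.59 and 5.59 CPM contralaterally and 14.5, 7.26 and 7.79 CPM ipsilaterally. The level of mouse 1 was the highest on both sides, so the groups overlapped although each mouse was lower contralaterally. Its estimate of -0.69 (SE 0.17) had an edgeR adjusted p of 0.0645. By edgeR it passed without mouse 3 (adjusted p 0.0378) but not without mouse 1 (0.124), without mouse 2 (0.182) or without the block (0.820). Kcnk1, Kcnk2 and Kcnk3 had estimates of -0.22, -0.24 and -0.24, and Kcnk9, the most abundant of the family per kilobase, of 0.07. Without mouse 2 Kcnk1 and Kcnk2 were at -0.105 and -0.097.

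Of the 10 auxiliary genes, 8 had negative estimates (median -0.16) and 0 passed by edgeR. Kcnab1, a beta subunit that speeds the inactivation of Kv1 channels, came nearest: it was at 42.5, 31.9 and 43.5 CPM contralaterally and 54.1, 47.3 and 54.0 CPM ipsilaterally. The groups did not overlap, and the estimate of -0.41 (SE 0.10) had an edgeR adjusted p of 0.0594. It passed under both other scalings, with 0.0482 after relative log expression (RLE) and 0.0471 after upper-quartile scaling. Kcnab2, the gene of the set with the highest mean RPKM, had an estimate of 0.11 (SE 0.10). The Kv4-binding proteins Kcnip1, Kcnip3 and Kcnip4 stood at -0.37, -0.14 and -0.17, and Kcnip2 at 0.04. The antisense genes Kcnmb4os2 and Kcnd3os had few reads, with estimates of -0.18 (SE 0.31) and 0.01 (SE 0.30).

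Across the 74 genes, 49 estimates were under 0 and 25 above, with a median of -0.10. Over all tested genes 44.7% were under 0, with a median of 0.03. The contralateral side was lower in all mice in 28 genes (37.8%) and higher in all mice in 12 (16.2%), beside 17.3% and 19.2% of all tested genes. The tested genes with a mean of at least 1 CPM are the closer comparison. Of these, 46.6% were under 0 with a median of 0.02, and 19% were lower and 19% higher in all mice. The 53 genes with at least 10 CPM had a median of -0.14, and the 21 scarcer ones a median of 0.01. The shift of the set differed between mice: medians of the set were -0.09, -0.25 and 0.04 in mice 1, 2 and 3, and over all tested genes 0.00, 0.03 and 0.02. Without mouse 2 the median of the 74 genes was -0.02. In fits without the block, the median of the 74 genes was -0.006 within the low mt-Rnr1 set of libraries and -0.098 within the high set, against -0.097 with all libraries. Of 42 channel and partner genes followed singly, 21 had an estimate that was over 1.5 times nearer 0 or of the other sign without mouse 2, against 5 without mouse 1 and 3 without mouse 3. Kcnv1 and Kcns2 are among the 28 genes lower in each mouse, and each passed by edgeR when any of the mice was left out. Both had been picked by passing in the same 3 pairs, so these fits are not a separate test.

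**Figure D4:**
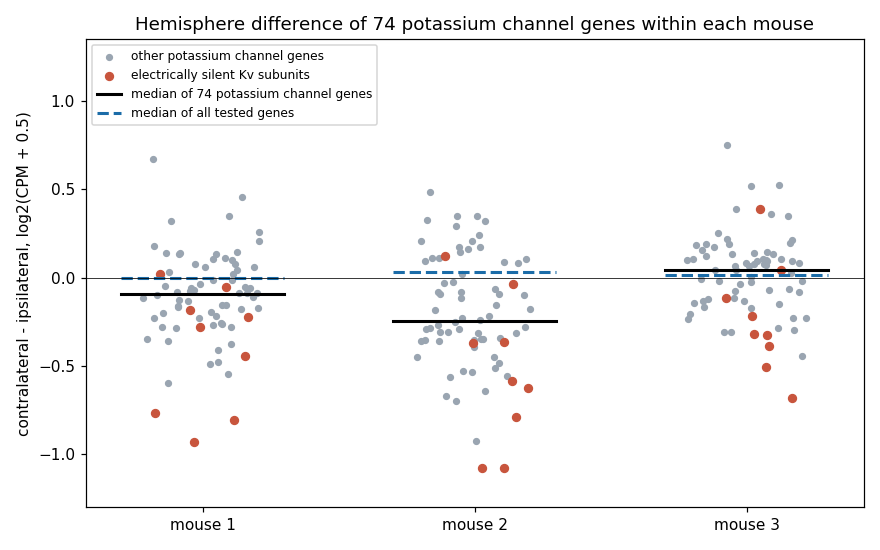
Contralateral minus ipsilateral log2(CPM + 0.5) of each gene within each mouse (red: silent Kv subunits), with the median of the 74 genes (black) and of all tested genes (dashed). The black line lies under the dashed one in mouse 2 (-0.25 against 0.03) and slightly above it in mouse 3 (0.04 against 0.02), while most red points are negative in all mice.

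Other measures moved with hemisphere in the same libraries. All 6 activity-regulated reference genes (Arc, Bdnf, Egr1, Fos, Npas4 and Nr4a1) fell, with summed levels of 264 to 478 CPM contralaterally and 972 to 1103 CPM ipsilaterally. Of 6 GABAergic neuron markers, 3 fell, and the list summed to 279 to 337 CPM contralaterally and 413 to 490 CPM ipsilaterally, with no marker at 0. Without the block, edgeR called none of these 3 (adjusted p 0.278 for Gad1, 0.452 for Gad2 and 0.20 for Vip), and of the activity-regulated genes it called all but Npas4 (0.587). None of the 4 excitatory neuron markers passed by edgeR, and their sums overlapped (4241 to 4721 and 3506 to 4841 CPM). The part of these shifts in the values of Kcnv1, Kcns2 and the other channel genes was not tested. In dissected tissue, fewer cells of a type and less RNA per cell cannot be told apart.

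Of 23 tested genes whose products bind potassium channels or carry related currents, 0 passed by edgeR. At an unadjusted edgeR p under 0.05, 2 were lower (8.7%) and 1 higher (4.35%), near the 6.94% and 6.3% of all tested genes. Estimates were negative in 17 (73.9%, median -0.08), beside 44.7% of all tested genes and 46.6% of those with a mean of at least 1 CPM. Vapa, which tethers Kv2 channels to the endoplasmic reticulum, had an estimate of -0.27 (SE 0.10), and Lgi1, a secreted protein linked to Kv1 complexes, of -0.23 (SE 0.11), which was -0.05 without mouse 2. Abcc9, the sulfonylurea receptor of vascular ATP-sensitive channels, stood at 0.29 (SE 0.13), or 0.12 without mouse 2, and Kcnj8, the channel subunit it joins, at -0.22 (SE 0.25).

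CircRNAs of potassium channel genes took 1.00% of all back-splice reads, with a median of 7 reads per library and circRNA. Of the 17, 9 came from EAG family genes and 5 of these from Kcnh5 alone. The bounds of 15 matched annotated exons (GENCODE M21), all of them coding sequence, and none held the first or last exon of the transcript. Spliced lengths ran from 218 to 1296 bases over 1 to 6 exons. The other 2 did not have both bounds at exons of a single annotated transcript. Of these, 1 came from Kcnh7, where the authors label both ends as exonic, and 1 lay inside an intron of Kcnip4.

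The circles of Kcnh5 share ends, which their junctions show. Each sequence below runs 5′ to 3′ on the strand of the gene, from GENCODE M21 transcripts on GRCm38. Lower case marks the last 15 bases of the downstream exon and capitals the first 15 bases of the upstream exon to which it is spliced back. The single exon circles of Kcnh1 and Kcnj6 are set beside them, the first as the same exon of the closest relative and the second as the most abundant circle of the set.
Kcnh5 exons 2 to 7 (minus strand, chr12:75087405-75154281): tgatgatggtcggctAATCAAGTTTCTTAC
Kcnh5 exons 4 to 7 (minus strand, chr12:75087405-75131026): tgatgatggtcggctGTACCCCTGTTTGGT
Kcnh5 exon 7 (minus strand, chr12:75087405-75087831): tgatgatggtcggctGGAATCAGCAGTCTC
Kcnh5 exons 2 to 6 (minus strand, chr12:75114191-75154281): gaaaatgtggatgagAATCAAGTTTCTTAC
Kcnh5 exons 3 to 6 (minus strand, chr12:75114191-75137750): gaaaatgtggatgagTTTTATGTATGGAGA
Kcnh1 exon 7 (plus strand, chr1:192337400-192337829): tcatgatgattggctGGCATCAGCAGCCTG
Kcnj6 exon 3 (minus strand, chr16:94832299-94833219): tggtggaagccacagCTAACGTCTTGGAAG

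Thus 3 Kcnh5 circles joined the end of exon 7 and 2 the end of exon 6 to different starts, and 2 of the 5 began at exon 2. Kcnh1 and Kcnh5 both gave a circle of exon 7 alone, 430 and 427 bases long, and their junctions were identical at 24 of 30 bases. In both genes the exon is the seventh of 11 in the matched transcript.

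The Kcnj6 circle, exon 3 of the G protein-gated subunit Kcnj6, was the most abundant, with 48, 43 and 53 back-splice reads contralaterally and 34, 88 and 62 ipsilaterally. The groups overlapped, and its log2 fold change was -0.11 (SE 0.24, edgeR adjusted p 0.993). The Kcnh5 circle of exons 2 to 6 had 13, 16 and 21 reads contralaterally against 15, 23 and 31 ipsilaterally, and an estimate of -0.28 (SE 0.40). For exons 2 to 7 there were 9, 15 and 13 against 18, 24 and 14 reads, and an estimate of -0.40 (SE 0.45); scaled to back-splice totals it was lower in all mice, as was the circle of exons 4 to 7 at -0.79 (SE 0.72), whose groups did not overlap (1, 6 and 7 against 8, 10 and 8 reads). The host gene Kcnh5 stood at 0.08 (SE 0.10). A Kcnma1 circle of exons 21 to 24 had 1, 16 and 21 reads contralaterally and 4, 12 and 6 ipsilaterally, so mouse 1 ran against the other mice, and the estimate was 0.86 (SE 0.58).

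**Figure D5:**
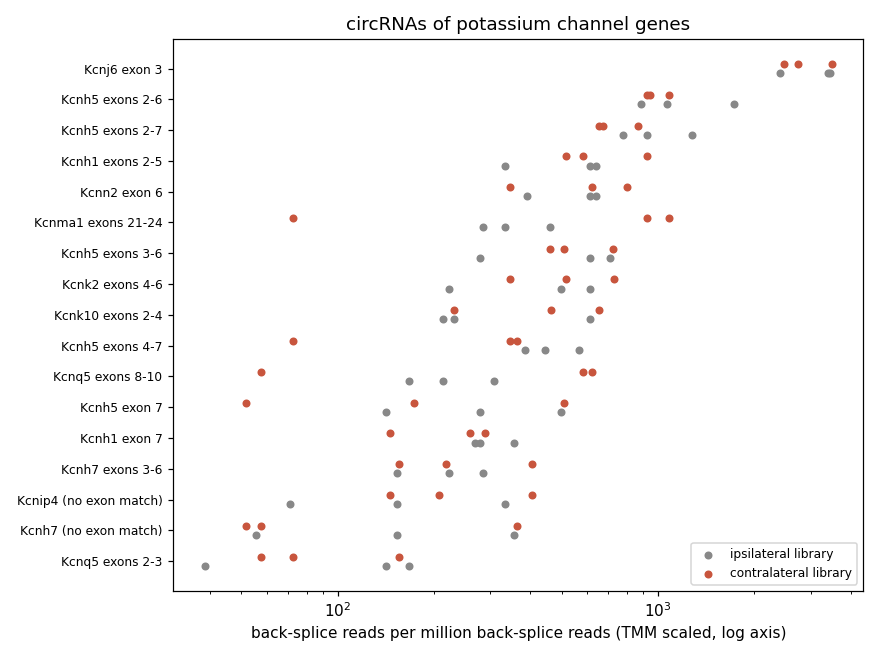
Level in CPM of back-splice reads (log axis, TMM scaled) of the 17 circRNAs, 1 point per library (grey ipsilateral, red contralateral), ordered by total reads. Points of both colours overlap for every circle except that of Kcnh5 exons 4 to 7, and the Kcnj6 circle (2412 to 3496) lies above all others.

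Of these 17 circRNAs 8 had a lower and 9 a higher estimate, and 0 passed by edgeR, with 0 at an unadjusted p under 0.05. Of all 1468 tested circRNAs 0% passed and 4.5% had an unadjusted p under 0.05. DESeq2 likewise called 0. The ratio of circle to host reads, tested with limma, also gave 0 calls among the 17 and 0% among all 1447 ratios, with 0 and 4.28% at an unadjusted p under 0.05. The SEs of the 17 log2 fold changes ran from 0.24 to 0.79, and estimates larger than their own SE, such as those of the Kcnma1 circle and of Kcnh5 exons 4 to 7, did not pass.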

How the data were processed

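Total RNA of 6 V1 libraries (SMARTer stranded kit, per the labels' protocols) was counted by the authors: the deposited tables give, per the file headers, whole-number counts of reads for each Ensembl gene and of back-splice reads for each circRNA. Tools listed in the submitters' processing notes are HISAT2, featureCounts, DESeq2 and limma, and the build is GRCm38. Not given in the sources used here are their versions, the strand setting, the circRNA caller and the release of the annotation. Reads carried no molecular identifiers used here. The authors' normalized circRNA values were not used, and columns of other series numbered 0.

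Symbols and positions came from GENCODE M21 (52489 of 52636 IDs matched). The set was every symbol starting with Kcn with a mean of at least 1 CPM (TMM scaling); 1 further channel gene and 1 antisense gene were not analysed here. Genes were tested with edgeR 4.0.16 in R 4.3.3 (quasi-likelihood, TMM, filterByExpr at min.count 10 and min.total.count 15, mouse as a block, Benjamini-Hochberg over 20473 genes, threshold 0.05). CircRNAs with at least 2 reads in 3 libraries were tested the same way, and circle to host ratios with limma 3.58.1 and a pseudocount of 0.5. An SE is the size of the log2 fold change divided by the root of the F statistic. Scripts were tested on simulated data with 200 changed features. At a log2 change of 0.5 the gene test recovered 35%, with 9.09% of calls false. At a log2 change of 1 the tests recovered 73.5% of genes, 6.5% of circRNAs and 2.5% of ratios. The false shares of calls were 5.16%, 7.14% and 16.7%. At a log2 change of 2, 46% of circRNAs and 23.5% of ratios were recovered. A result of 0 calls for circRNAs or ratios therefore cannot show a lack of such changes. Differences within a mouse use log2(CPM + 0.5). RPKM values use the length column of the gene table.

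The members, families and lists, and the mouse block in the main test, were chosen with earlier results of these data known, among them that the block raises the number of calls. The block follows the labels, which give both hemispheres of a number the same mouse; within a mouse, the libraries' deviations from their group mean had correlations of 0.508, 0.0979 and 0.221 (at most 0.193 between mice). Named genes were those that passed with or without the block, per family the 3 with the smallest p and the 2 with the highest RPKM, the 4 partner genes with the smallest p, and the 8 circRNAs with the smallest p and the 6 most abundant. Some genes picked by this rule are not reported one by one; they stay in all counts and medians. Other genes, and the printed junctions, were named after their values were seen. Alternatives were no block, RLE and upper-quartile scaling, DESeq2 1.42.0, limma-voom, other filters, a pseudocount of 1, leaving out each mouse, and the mt-Rnr1 sets. Figures used matplotlib 3.10.9.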

Additional observations from a re-analysis of the deposited data

How the results depend on the processing

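Kcnv1 and Kcns2 stayed lower in contralateral V1 under all 12 alternatives, with log2 fold changes from -1.01 to -0.80 and from -0.96 to -0.60. Kcnv1 missed the adjusted threshold within both mt-Rnr1 sets (adjusted p over all alternatives 3.701e-13 to 0.349), and Kcns2 there and without the block (1.772e-07 to 1.00). Without the replicate block, 1 potassium channel gene fell, against 2 with it, and over all genes 26 fell and 0 rose, against 143 and 40. Potassium channel genes that fell numbered 4 with RLE scaling and 4 with no filter (Kcnv1, Kcns2, Kcnab1 and Kcnk12 both times), 2 to 3 when a mouse was left out, and 0 within either mt-Rnr1 set, where 3 libraries remain and a lone library is assumed to vary like the pair it is set against. Over all genes, 295 fell and 140 rose with no filter, 77 rose with upper-quartile scaling, 124 to 202 fell and 48 to 74 rose when a mouse was left out (74 without mouse 3), 32 fell and 5 rose in the low mt-Rnr1 set, and 27 and 2 in the high set. CircRNA and ratio calls were 0 under every alternative run. A mean of at least 5 CPM would leave 60 of the 74 genes.

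Some estimates changed sign, none of them past the threshold, and the cause was not tested. Kcnd3os was at -0.006 without the block, -0.017 with RLE scaling, -0.016 in DESeq2, -0.009 with no filter and -0.37 in the low mt-Rnr1 set. In that set Kcna3 was at 0.074, Kcnc4 at 0.11, Kcnc1 at 0.13, Kcnmb4os2 at 0.12, Kcnj4 at 0.11, Kcnip3 at 0.017, Kcnj10 at -0.11 and Abcc9 at -0.041. Over the fits without 1 mouse, estimates ran from -0.17 to 0.21 for Kcnd3os, -0.007 to 0.17 for Kcnh5, -0.13 to 0.041 for Kcnb2, -0.16 to 0.077 for Kcna2, -0.48 to 0.078 for Kcnmb4os2, -0.070 to 0.16 for Kcnj10 and -0.098 to 0.14 for Kcnd1. For circRNAs they ran from -0.35 to 0.12 for Kcnj6, -0.23 to 0.53 for Kcnn2, -1.74 to 0.15 for Kcnh5 exon 7, -0.22 to 1.25 for Kcnip4, -0.10 to 1.68 for Kcnq5 exons 8 to 10 and -0.44 to 0.47 for Kcnh5 exons 3 to 6, and the Kcnj6 circle was at 0.026 with library sizes from the gene table. For ratios to the host they ran from -0.62 to 0.035 for Kcnh5 exons 2 to 7, -0.19 to 0.10 for Kcnj6, -0.34 to 0.46 for Kcnn2, -0.009 to 1.69 for Kcnma1, -0.046 to 1.64 for Kcnq5 exons 8 to 10, -1.49 to 0.14 for Kcnh5 exon 7 and -0.40 to 0.64 for Kcnh5 exons 3 to 6.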
